A study of Mus musculus with 9 samples.

Results

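The NAD, ATP and adenosine surface pathway of CD8 T cells was followed through 7 genes in 3 clones of mouse T cells. They were the ADP-ribosyltransferase Art2b, the P2X receptors P2rx7 and P2rx4, the ectoenzymes Cd38, Entpd1 and Nt5e, and the adenosine receptor Adora2a. The genes were picked by symbol, and each of the 7 was found among the 24060 genes of the table.

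The cells came from the transnuclear mouse lines Rop7-I, Rop7-II and Rop7-III, each grown from the nucleus of a CD8 T cell whose receptor (TCR) binds the Rop7 peptide of Toxoplasma on H-2Ld. The lines were bred onto BALB/c, the mice used were homozygous for the rearranged TCR chains, and their age is not given in the sources used here. Spleen cells rested overnight in medium with 10 ng/ml IL-2 and no antigen, and CD3+ CD8+ cells positive for the Rop7 tetramer were then sorted to a stated purity of 90 to 95%. The question was whether clones that see the same peptide, but differ in TCR affinity and self-reactivity, differ before they are stimulated. Each clone had 3 biological replicates, 9 samples in all. The labels do not say whether each replicate was a separate mouse, so p-values measure the spread between these samples. Since each clone is a single line, its TCR and any other inherited difference of that line cannot be told apart.

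Levels are in TPM, a measure of transcript abundance in which the reads of a gene are corrected for its length and scaled to the same total in every sample. The unit keeps no sequencing depth, and the methods of the study give only a typical number of reads, so no counting error is given for low values. Differences are on the log2(TPM + 1) scale, which understates the change of genes near 1 TPM. A gene is said to pass when limma's adjusted p was under 0.01 among the 12115 genes whose highest TPM was over 1.

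On the surface of T cells, ART2 enzymes use extracellular NAD to attach ADP-ribose to neighbouring proteins. One of them is P2X7, an ATP-gated channel that this modification can open without ATP, with exposure of phosphatidylserine and death of the cell as known outcomes. CD38 breaks down NAD. CD39, the product of Entpd1, takes ATP and ADP to AMP, and CD73, the product of Nt5e, takes AMP to adenosine. Adenosine raises cyclic AMP through the receptor that Adora2a encodes and thereby dampens T-cell activation.

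The samples matched their label as CD8 T cells. The 8 CD8 T-cell markers summed to between 7594 and 8426 TPM, and the most abundant, Cd8b1, lay between 2052 and 2386 TPM. Single markers of that list differed between clones, with 3 of 8 passing (37.5%) both for Rop7-III against Rop7-II, beside 12.3% of all genes, and for Rop7-I against Rop7-II, beside 7.53%. With 1 sample left out, 2 to 3 passed in the former pair and 1 to 3 in the latter, while the share of all genes ran from 6.89 to 11.04% and from 3.44 to 7.34%. Against Rop7-II, Cd8a differed by -0.39 on the log2 scale in Rop7-III (adjusted p = 0.000205), and Cd2 by 0.54 in Rop7-III (adjusted p = 1.52e-05) and 0.39 in Rop7-I (adjusted p = 0.000132).

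Rop7-II replicate 1 and Rop7-I replicate 2 stood apart from the other libraries. In Rop7-II replicate 1, 14 of 14 B-cell markers and 11 of the 11 myeloid markers found in the table had their highest level of all 9 samples. The B-cell markers summed to 2586 TPM there, with Cd74 the most abundant at 955.6 TPM. In the other samples their sum was 424.0, 1110 and 821.0 TPM for Rop7-I, 201.3 and 286.1 TPM for Rop7-II and 156.8, 332.9 and 237.8 TPM for Rop7-III. The myeloid markers summed to 690.1 TPM in Rop7-II replicate 1, led by Lyz2 at 485.3 TPM. Their sum was 230.2 TPM in Rop7-II replicate 3 and between 42.0 and 146.05 TPM elsewhere. No B-cell or myeloid marker was at 0 in any sample, although the sort selected CD3+ CD8+ cells. In Rop7-I replicate 2, 5 of the 6 erythroid markers had their highest level. They summed to 1408 TPM there and to 15.2 to 285.6 TPM elsewhere. Hba-a2 led in that library at 842.5 TPM, ahead of Hba-a1 at 501.5 TPM. Over all samples Hba-a1 was the most abundant, although listed at 0 in replicate 3 of both Rop7-II and Rop7-III. Hbb-bs was listed at 0 throughout. In bulk RNA, fewer cells of a type and less RNA per cell cannot be told apart.

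Art2b was nearly silent in Rop7-III CD8 T cells, Nt5e was low throughout and highest in Rop7-II, and Adora2a was highest in Rop7-III and lowest in Rop7-II. Between Rop7-III and Rop7-II, 3 of the 7 members passed, against 12.3% of all genes tested in that pair. Of these, 1 was higher in Rop7-III (6.39% of all genes) and 2 were lower (5.89%). Between Rop7-III and Rop7-I, 1 of 7 passed and was lower in Rop7-III, against 4.85% of all genes in either direction, 2.58% higher and 2.28% lower. Between Rop7-I and Rop7-II, 1 of 7 passed and was lower in Rop7-I, against 7.53% in either direction, 3.67% higher and 3.85% lower. In the F test over the 3 clones 3 of 7 passed, against 14.1%. Without Rop7-II replicate 1, 6 members could be tested, and those passing in the 3 pairs again numbered 3, 1 and 1, against 11.04%, 6.97% and 7.34% of all genes in those fits. Without Rop7-I replicate 2 they numbered 3, 1 and 0, against 10.1%, 2.44% and 3.44%. In the pairs, the calls lost when a sample was left out were those of Nt5e. If any one Rop7-III replicate was left out, 2 members passed between Rop7-III and Rop7-II (6.89 to 7.41% of all genes), and the single call between Rop7-I and Rop7-II was lost in 7 of the 9 fits that left out a sample (3.44 to 6.19% of all genes). Only Art2b both passed and differed at least 2-fold on the log2(TPM + 1) scale in any pair, as did 2.48% of all genes. Every member got through the filter on low values, but Entpd1 did so through Rop7-II replicate 1 alone, and Nt5e through the Rop7-II samples alone. Art2b did so through Rop7-I and Rop7-II samples alone. A member kept by the group in which it is high had to differ, so these counts say little of the pathway as a whole. The 3 pairs also share samples and are not independent of each other.

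**Figure D1:**
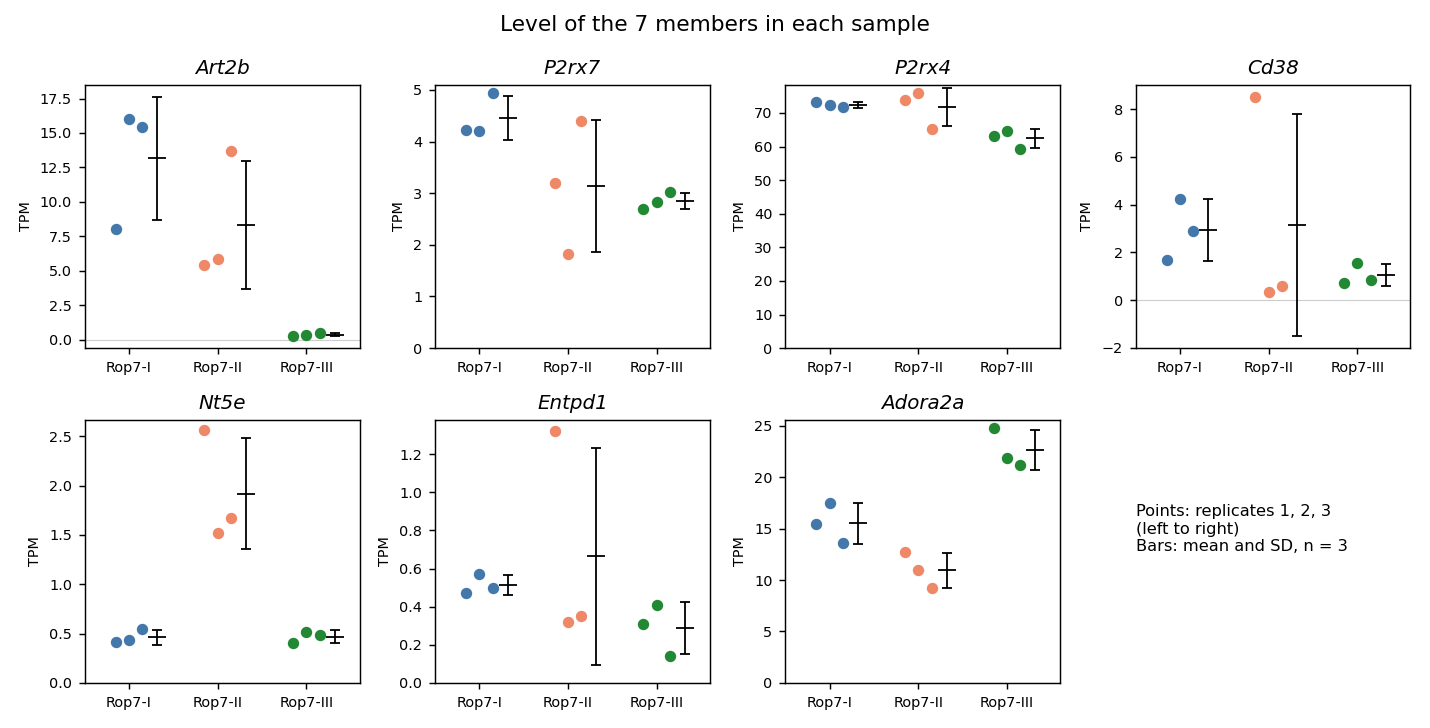
Level of the 7 members in TPM (y axis) in each of the 9 samples by clone (x axis), with replicates 1 to 3 from left to right and bars for the mean and SD of 3 replicates. Art2b lies at 0.26 to 0.46 TPM for Rop7-III and at 5.4 to 16.0 TPM elsewhere, and Cd38 and Entpd1 peak in Rop7-II replicate 1.

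Art2b encodes the enzyme ART2.2, the main ADP-ribosyltransferase of mouse T cells. Its level was 8.03, 16.0 and 15.4 TPM in the 3 Rop7-I samples, 5.40, 5.84 and 13.7 TPM for Rop7-II and 0.26, 0.34 and 0.46 TPM for Rop7-III. The 3 Rop7-III samples were all below the other 6, while Rop7-I and Rop7-II overlapped. Means were 13.2 ± 4.45 TPM (SD, n = 3) in Rop7-I, 8.31 ± 4.67 TPM for Rop7-II and 0.353 ± 0.101 TPM for Rop7-III. Rop7-III against Rop7-II gave a log2 fold change of -2.68 (95% interval -3.42 to -1.93, limma adjusted p = 0.000535). Against Rop7-I it was -3.33 (interval -4.08 to -2.59, adjusted p = 0.000343). The ratio of means was larger, 23.5 for Rop7-II over Rop7-III and 37.3 for Rop7-I over Rop7-III, because the scale compresses low values. Rop7-I against Rop7-II did not pass (0.66, interval -0.09 to 1.40, adjusted p = 0.208).

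The gene has a close copy beside it, listed in the table as Art2a-ps and in RefSeq as the transcribed pseudogene Art2a. That label describes the reference assembly, and whether the copy encodes an enzyme in these mice, bred onto BALB/c, was not tested. Art2b spans chr7:101575729-101585591 and the copy chr7:101552453-101560865 on GRCm38, the assembly also called mm10, both on the minus strand. Over 862 aligned bases the GENCODE transcripts Art2b-201 and Art2a-ps-201 were 87.9% identical. Reads can be split between such copies, so the stretch of 120 bases in which they differ most is shown, from the coding part of exon 2 of Art2b (chr7:101579993-101580112) and exon 3 of the copy (chr7:101554632-101554751). Both read 5′ to 3′ on the minus strand, with capitals at the 27 bases that differ.
Art2b: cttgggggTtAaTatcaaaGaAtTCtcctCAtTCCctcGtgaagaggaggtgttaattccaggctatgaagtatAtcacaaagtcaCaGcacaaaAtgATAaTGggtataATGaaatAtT
Art2a-ps: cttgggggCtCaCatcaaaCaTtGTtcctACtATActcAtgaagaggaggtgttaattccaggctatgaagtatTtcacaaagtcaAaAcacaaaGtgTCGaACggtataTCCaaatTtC
The longest run they share here is 35 bases. Of the windows as long as the 100-base reads, 3.37% of those in Art2b-201 and 2.42% of those in Art2a-ps-201 occur in a transcript of the other copy.

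The copy followed the same order. Art2a-ps stood at 1.23, 2.89 and 2.10 TPM for Rop7-I, at 1.16, 1.13 and 1.91 TPM for Rop7-II and at 0.09, 0 and 0.23 TPM for Rop7-III. Again the 3 Rop7-III samples lay below the other 6. Rop7-III differed from Rop7-II by -1.11 on the log2 scale (adjusted p = 0.00796) and from Rop7-I by -1.44 (adjusted p = 0.00433). Neither call was firm. The first missed the threshold without Rop7-I replicate 3 (0.0153), each of Rop7-II replicates 1 to 3 (0.0115, 0.0138 and 0.0297) and each of Rop7-III replicates 1 to 3 (0.0284, 0.0314 and 0.0186). The second missed it without Rop7-I replicate 2 or 3 (0.0196 and 0.0193) or Rop7-III replicate 1, 2 or 3 (0.0189, 0.0223 and 0.0139). With both copies summed into a single value, the level was 9.26, 18.9 and 17.5 TPM for Rop7-I, 6.56, 6.97 and 15.6 TPM for Rop7-II and 0.35, 0.34 and 0.69 TPM for Rop7-III. The summed log2 fold change was -2.78 against Rop7-II (adjusted p = 0.000412) and -3.42 against Rop7-I (adjusted p = 0.000302). In the other 6 samples the copy made up 11.97 to 17.7% of the sum. Within 1 Mb of Art2b, 30 other genes were tested, and Art2a-ps was the only one called at 2-fold in any pair, beside 2.48% of all genes. The copy got through the filter on low values through Rop7-I and Rop7-II samples alone.

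The listed promoter windows of Art2b and Nt5e are shown because these members separated one clone from the others and have entries in the RefSeq promoter table. Each runs from 250 bases before to 50 after the listed start. Capitals mark matches on either strand to TGTGGT (RUNX), GGAAGT (ETS) or TGACG (CRE half-site), none of which contains another. The motifs were chosen after the expression values were seen.
Art2b, chr7:101581112-101581411, minus strand, GRCm38: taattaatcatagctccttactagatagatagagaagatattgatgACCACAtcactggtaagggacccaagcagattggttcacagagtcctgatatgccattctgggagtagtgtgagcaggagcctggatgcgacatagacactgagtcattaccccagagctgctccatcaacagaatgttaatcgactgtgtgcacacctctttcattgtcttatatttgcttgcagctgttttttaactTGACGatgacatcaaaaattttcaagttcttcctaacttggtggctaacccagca
Nt5e, chr9:88327359-88327658, plus strand, GRCm38: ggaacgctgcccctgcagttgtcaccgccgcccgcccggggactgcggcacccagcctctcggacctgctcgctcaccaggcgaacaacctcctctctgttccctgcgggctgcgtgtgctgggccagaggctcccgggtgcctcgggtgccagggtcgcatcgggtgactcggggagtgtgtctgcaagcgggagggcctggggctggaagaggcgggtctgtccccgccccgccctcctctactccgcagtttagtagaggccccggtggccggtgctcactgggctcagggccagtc
The Art2b window lies inside the span of the gene given above, which on the minus strand begins at chr7:101585591. From the listed start on, its last 50 bases begin with ATG, and the coding part of Art2b-201 begins at base 1 of that transcript. The window is therefore not known to be the promoter in use. The Art2b window held 1 RUNX match and 1 CRE half-site match, the latter ending just before that ATG. The Nt5e window had no match to any of the motifs. Of the 32851 promoters in the table, 16.8% held the RUNX letters, 23.8% the ETS letters and 20.8% the CRE half-site. A match is only a description of the letters.

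The genes most like Art2b across the 9 samples, among tested genes with a mean of at least 5 TPM, were Gtf2i, Hs6st1 and G3bp1, with Pearson r of 0.98, 0.98 and 0.97. Their levels moved far less than that of Art2b. Gtf2i averaged 591.2 TPM for Rop7-I, 560.4 TPM for Rop7-II and 472.8 TPM for Rop7-III. Hs6st1 averaged 44.5, 43.1 and 31.1 TPM in the same order.

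Of the other ADP-ribosyltransferases and NAD hydrolases on the list, 3 of 7 were tested. Art4, a relative of Art2b known for the Dombrock antigen of red cells, averaged 27.8 TPM for Rop7-I, 22.6 TPM for Rop7-III and 17.5 TPM for Rop7-II, with no overlap between clones. Both Rop7-I (log2 fold change 0.64, adjusted p = 0.000132) and Rop7-III (0.35, adjusted p = 0.00221) exceeded Rop7-II. The latter call was lost without Rop7-III replicate 1 (adjusted p = 0.0112) or 3 (0.0103). Bst1, a relative of Cd38, peaked at 3.03 TPM in Rop7-II replicate 1, was at or under 0.88 TPM in the other 8 samples and did not pass in any pair.

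P2rx7, the receptor that ADP-ribosylation opens, was expressed at a low level in every clone. It measured 4.22, 4.20 and 4.94 TPM for Rop7-I, 3.20, 1.83 and 4.39 TPM for Rop7-II and 2.70, 2.83 and 3.02 TPM for Rop7-III. The Rop7-I samples all lay above those of Rop7-III, and Rop7-II overlapped both. No pair passed. Rop7-III differed by -0.06 on the log2 scale from Rop7-II (interval -0.51 to 0.40), by -0.50 from Rop7-I (interval -0.96 to -0.04, adjusted p = 0.145) and Rop7-I differed from Rop7-II by 0.44 (interval -0.01 to 0.90, adjusted p = 0.170). The gene lies at chr5:122643927-122692336, on the same strand as P2rx4 at chr5:122707518-122729739.

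P2rx4, a related ATP-gated channel with high sensitivity to ATP, was the most abundant member. Its level was 73.4, 72.2 and 71.7 TPM for Rop7-I, 73.9, 76.1 and 65.3 TPM for Rop7-II and 63.3, 64.7 and 59.3 TPM for Rop7-III. The Rop7-III samples were the 3 lowest, by a small margin. Their log2 fold change was -0.20 against Rop7-II (adjusted p = 0.0348) and -0.21 against Rop7-I (adjusted p = 0.0409), so neither passed. Without Rop7-II replicate 3 the first of these did, with an adjusted p of 0.00501, and with only its own 6 samples the second did (0.00985). In TPM, P2rx4 exceeded P2rx7 by a factor of 14.5 to 41.6 within a sample, and both together made up 97.9 to 99.3% of the P2X receptor total. The 5 other P2X genes all stayed at or under 1 TPM and were not tested.

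**Figure D2:**
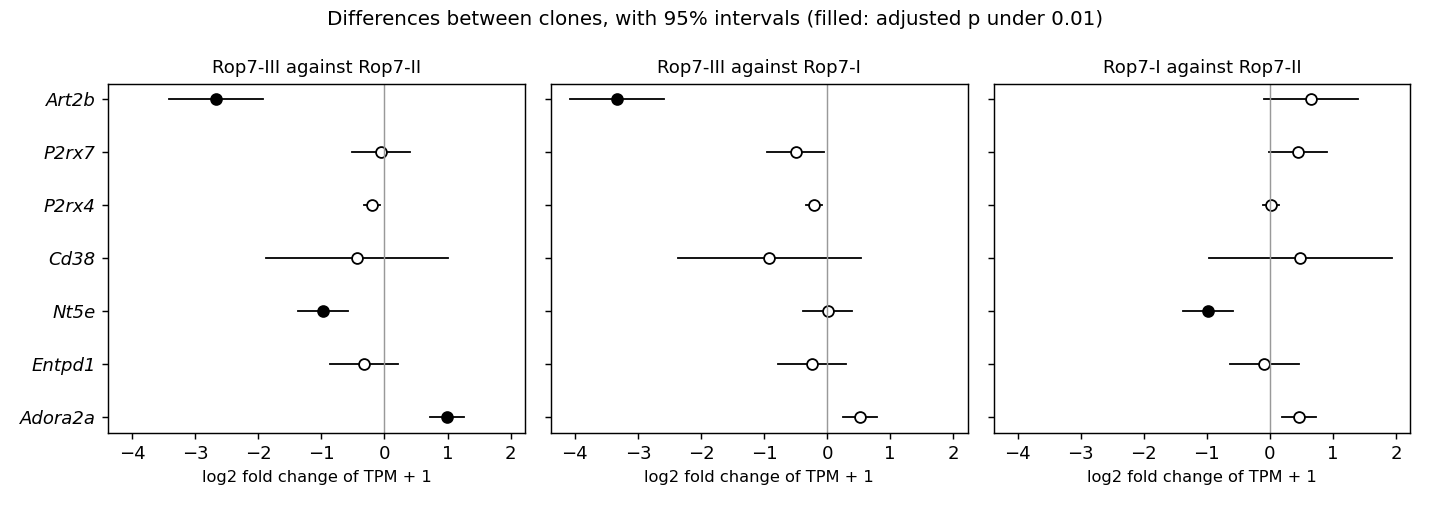
Log2 fold change of TPM + 1 (x axis) of each member (y axis) in the 3 pairs of clones, with lines for 95% intervals and filled points for an adjusted p under 0.01. Filled points mark Art2b at -2.68 and -3.33, Nt5e at -0.97 and -0.98 and Adora2a at 0.99.

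Cd38 encodes an NAD-consuming ectoenzyme that B cells and activated lymphocytes also carry. It measured 1.67, 4.25 and 2.90 TPM for Rop7-I, 8.51, 0.33 and 0.59 TPM for Rop7-II and 0.70, 1.57 and 0.86 TPM for Rop7-III. Rop7-II held both the highest sample and the 2 lowest, and every Rop7-I sample lay above those of Rop7-III, with means of 2.94 and 1.04 TPM. The 5 samples with the most Cd38 were, in order, Rop7-II replicate 1, Rop7-I replicates 2, 3 and 1 and Rop7-III replicate 2, and the summed B-cell markers gave the same order for those 5 but another for the remaining 4. No pair passed, with adjusted p between 0.395 and 0.659. On the log2 scale Rop7-III lay at -0.92 from Rop7-I (adjusted p = 0.395, with 0.0413 to 0.635 over the alternatives tried). Without Rop7-II replicate 1 the log2 fold change of Rop7-III against Rop7-II turned from -0.44 to 0.47 (adjusted p = 0.284), and that of Rop7-I against Rop7-II went from 0.48 to 1.38 (adjusted p = 0.0124). With the B-cell marker level as a covariate, an alternative chosen after the data were seen, the value for Rop7-III was 0.37 against Rop7-II (adjusted p = 0.0661) and turned to 0.26 against Rop7-I (adjusted p = 0.261). What share of the Cd38 signal came from other cells was not tested.

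Entpd1, whose product CD39 begins the breakdown of extracellular ATP, was near the floor of the table. Its level was 0.47, 0.57 and 0.50 TPM for Rop7-I, 1.32, 0.32 and 0.35 TPM for Rop7-II and 0.31, 0.41 and 0.14 TPM for Rop7-III. Only Rop7-II replicate 1 exceeded 1 TPM, and without it the gene was not tested. The 5 highest samples for Entpd1 were the same as for Cd38 and in the same order, while the remaining 4 followed another order. No pair passed, with adjusted p between 0.354 and 0.846. Whether B or myeloid cells account for these values was not tested.

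**Figure D3:**
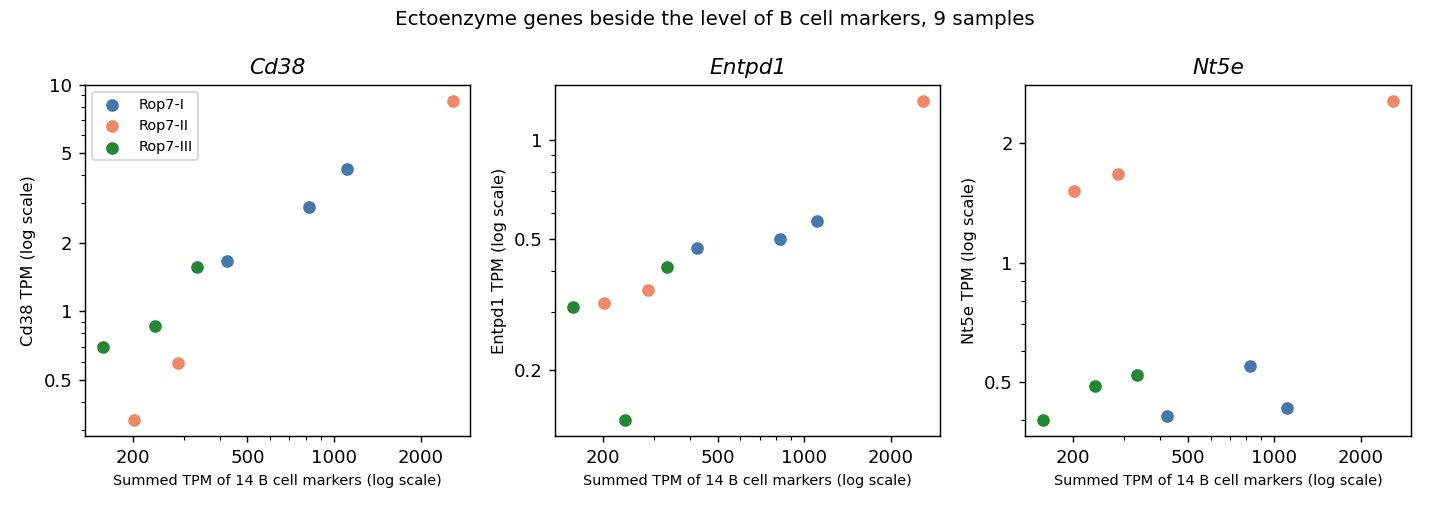
TPM of Cd38, Entpd1 and Nt5e (y axes, log scale) against the summed TPM of 14 B-cell markers (x axes, log scale), 1 point per sample colored by clone. Rop7-II replicate 1 is the rightmost point at 2586 TPM, and the 3 Rop7-II samples lie above the other 6 for Nt5e.

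Nt5e encodes CD73, which makes adenosine from AMP. It measured 0.41, 0.43 and 0.55 TPM for Rop7-I, 2.56, 1.52 and 1.67 TPM for Rop7-II and 0.40, 0.52 and 0.49 TPM for Rop7-III. All 3 Rop7-II samples were above the other 6, and Rop7-I and Rop7-III overlapped. Means were 1.92 ± 0.562 TPM (SD, n = 3) in Rop7-II, 0.463 ± 0.0757 TPM for Rop7-I and 0.470 ± 0.0625 TPM for Rop7-III. On the log2 scale the difference was -0.97 for Rop7-III against Rop7-II (interval -1.36 to -0.58, adjusted p = 0.00374) and -0.98 for Rop7-I against Rop7-II (interval -1.37 to -0.59, adjusted p = 0.00538). In ratios of means, Rop7-II exceeded Rop7-III by a factor of 4.08 and Rop7-I by 4.14. Rop7-III against Rop7-I gave 0.01 (interval -0.38 to 0.40).

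The highest Nt5e value fell in the library with the most B-cell and myeloid markers. The next highest, in Rop7-II replicate 3, came with the next highest myeloid sum, at 230.2 TPM. Rop7-II replicate 2 had 62.4 TPM of myeloid markers, with Nt5e at 1.52 TPM. Rop7-I replicates 2 and 3 and Rop7-III replicate 3 had more myeloid markers, at 97.7, 146.05 and 75.9 TPM. Their Nt5e was lower, at 0.43, 0.55 and 0.49 TPM. The remaining samples had less of both than Rop7-II replicate 2. Whether myeloid cells account for the Nt5e values was not tested. Without Rop7-II replicate 1 both calls held, with log2 fold changes of -0.82 (adjusted p = 0.00762) and -0.83 (adjusted p = 0.00977). With the B-cell covariate they were -0.84 (adjusted p = 0.00302) and -1.04 (adjusted p = 0.00103). At the level of single samples the calls were not firm. Rop7-III against Rop7-II did not pass without Rop7-II replicate 3 (adjusted p = 0.01002) or any of Rop7-III replicates 1 to 3 (0.0180, 0.0141 and 0.0143). Rop7-I against Rop7-II did not pass without Rop7-I replicate 1, 2 or 3 (0.0223, 0.0249 and 0.0162), Rop7-II replicate 3 (0.0134) or Rop7-III replicate 1, 2 or 3 (0.0111, 0.0115 and 0.0103). With any sample left out, both log2 fold changes lay between -1.08 and -0.82. The genes most like Nt5e over the 9 samples were Lrrc1, Atrip and Crip1, each with r = 0.98. Crip1 averaged 530.8 TPM for Rop7-II, 65.7 TPM for Rop7-I and 67.2 TPM for Rop7-III.

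Adora2a, the receptor through which adenosine acts on T cells, ran in the order Rop7-III, Rop7-I, Rop7-II. Its level was 24.8, 21.9 and 21.2 TPM for Rop7-III, 15.5, 17.5 and 13.6 TPM for Rop7-I and 12.7, 10.96 and 9.27 TPM for Rop7-II. No sample of a clone overlapped with those of another. Means were 22.6 ± 1.94 TPM (SD, n = 3), 15.5 ± 1.96 TPM and 10.97 ± 1.71 TPM in the same order. Rop7-III exceeded Rop7-II by 0.99 on the log2 scale (interval 0.72 to 1.26, adjusted p = 0.000490), just short of 2-fold, and the ratio of means was 2.06. Neighbours in this order did not pass. Rop7-III against Rop7-I gave 0.52 (interval 0.25 to 0.79, adjusted p = 0.0228) and Rop7-I against Rop7-II gave 0.47 (interval 0.20 to 0.74, adjusted p = 0.0272). Both intervals lie above 0. The first pair passed with sample weights (adjusted p = 0.00676) and with only the 6 samples of the pair (0.00824). Adora2a made up 87.2 to 99.6% of the TPM of the 4 adenosine receptors, and the only other one tested, Adora2b, reached 1.5 TPM in Rop7-II replicate 1 and did not pass. The genes most like Adora2a were Mfhas1, Agpat4 and Polg, with r of 0.99, 0.98 and 0.98.

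In location, Nt5e spans chr9:88327609-88372089, Cd38 chr5:43868809-43912374, Entpd1 chr19:40612366-40741602 and Adora2a chr10:75316877-75334792. The windows of 1 Mb around these, P2rx7 and P2rx4 held 4 to 34 tested genes each. Genes farther off on the same chromosome were not counted. Nmnat3 and Prkar2a, reported below, also lie on chromosome 9. In these windows the only gene called at 2-fold in any pair was Dntt, 1 of 12 tested near Entpd1, beside 2.48% of all genes. Dntt encodes terminal transferase. Its log2 fold change was 1.09 for Rop7-III against Rop7-I (adjusted p = 0.00979) and -1.53 for Rop7-I against Rop7-II (adjusted p = 0.00140). The reads carried no strand information, so those of the antisense gene Gm16015, which overlaps Cd38, cannot be told apart from its own.

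Around the 7 members, 77 further genes of the pathway were listed, of which 74 were in the table and 46 could be tested. Between Rop7-III and Rop7-II, 9 were higher, 5 were lower and 32 did not pass. The share that passed was 30.4%, beside the 12.3% of all genes, and the median log2 fold change was 0.07 beside -0.02 over all genes. Between Rop7-III and Rop7-I, 2 were higher, 2 were lower and 42 did not pass (8.70% beside 4.85% of all genes, median 0.01 beside -0.0035). Between Rop7-I and Rop7-II, 6 were higher, 2 were lower and 38 did not pass (17.4% beside 7.53%, median 0.03 beside -0.0088). Without Rop7-II replicate 1, 43 of the listed genes could be tested, and 10, 5 and 9 passed in the same order of pairs (23.3%, 11.6% and 20.9%, beside 11.04%, 6.97% and 7.34% of all genes). Without any one Rop7-III replicate, 8 of 46 passed between Rop7-III and Rop7-II (17.4%), as did 6.89 to 7.41% of all genes. Between Rop7-III and Rop7-I, 2 passed without Rop7-I replicate 2 or 3 or any one Rop7-III replicate (4.35%), in fits where 2.13 to 2.94% of all genes did. Between Rop7-I and Rop7-II 5 passed without Rop7-I replicate 2 (10.9% beside 3.44%). Altogether 14 genes passed in some pair.

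On the log2(TPM + 1) scale Acpp differed most of the listed genes tested, while Art2a-ps, near 0 in Rop7-III, had the larger ratio of means (19.4 against 5.37). The product of Acpp, prostatic acid phosphatase, is a transmembrane enzyme that can also make adenosine from AMP. Acpp measured 117.4, 130.5 and 135.2 TPM for Rop7-I, 91.4, 84.3 and 86.9 TPM for Rop7-III and 22.2, 22.0 and 27.1 TPM for Rop7-II. The clones did not overlap, and Rop7-II, where Nt5e was highest, had the least Acpp. It differed by 2.38 on the log2 scale for Rop7-I against Rop7-II (adjusted p = 2.83e-07), 1.84 for Rop7-III against Rop7-II (adjusted p = 1.70e-06) and -0.54 for Rop7-III against Rop7-I (adjusted p = 0.00324). The last of these was lost without Rop7-I replicate 2 or 3 (adjusted p = 0.0174 and 0.0152) or Rop7-III replicate 1, 2 or 3 (0.0102, 0.0185 and 0.0166). The ectonucleotidases Enpp1 and Alpl, at 6.32 to 9.21 TPM and 4.66 to 15.8 TPM, did not pass in any pair.

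Adenosine kinase, the product of Adk, which turns adenosine back into AMP inside the cell, ran in the same order as Adora2a. Adk measured 82.8, 84.4 and 85.8 TPM for Rop7-III, 49.5, 62.7 and 56.9 TPM for Rop7-I and 38.0, 34.8 and 34.6 TPM for Rop7-II. All 3 pairs passed, with log2 fold changes of 1.21 for Rop7-III against Rop7-II (adjusted p = 1.50e-05), 0.58 for Rop7-III against Rop7-I (adjusted p = 0.00158) and 0.63 for Rop7-I against Rop7-II (adjusted p = 0.000708). The nucleoside transporter Slc28a2 ran the other way, with means of 254.0 TPM for Rop7-II, 198.5 TPM for Rop7-I and 161.2 TPM for Rop7-III. Rop7-III against Rop7-II gave a log2 fold change of -0.65 (adjusted p = 0.000135). Rop7-I against Rop7-II gave -0.35 (adjusted p = 0.00562), which did not pass without Rop7-I replicate 1 or 2 (0.0231 and 0.0266), Rop7-II replicate 3 (0.0134) or Rop7-III replicate 1 or 2 (0.0119 and 0.01002). The other 5 genes of adenosine removal and transport, among them Ada and Dpp4, did not pass. Without Rop7-II replicate 2, Dpp4 did pass for both Rop7-III and Rop7-I against Rop7-II.

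**Figure D4:**
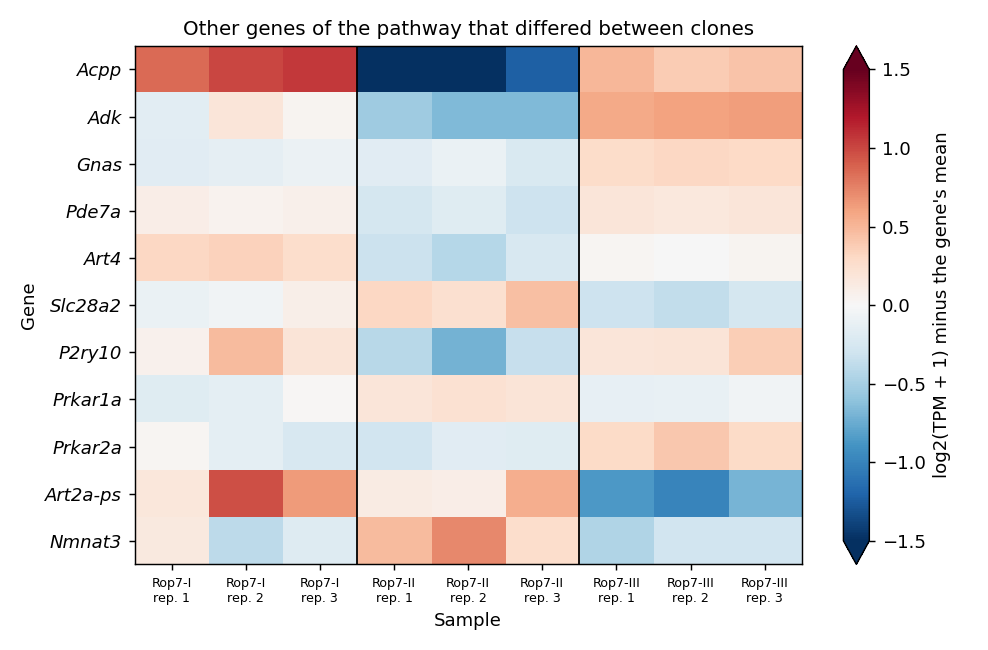
Log2(TPM + 1) minus the gene's own mean (color scale, shown between -1.5 and 1.5) for 11 other pathway genes that passed in some pair (y axis) in each sample (x axis), with lines between clones. Acpp is lowest in Rop7-II at 22.0 to 27.1 TPM, and Adk is highest in Rop7-III at 82.8 to 85.8 TPM.

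Of the 13 tested genes of cyclic AMP signalling, which lies downstream of the Adora2a product, 6 passed between Rop7-III and Rop7-II, 46.2% beside 12.3% of all genes, and 4 of them were higher. Without Rop7-III replicate 2 only Gnas and Pde7a of the 6 passed (15.4% beside 7.07% of all genes), and without Rop7-III replicate 1 there were 3 (23.1% beside 6.89%). Between Rop7-III and Rop7-I 1 passed (7.69% beside 4.85%), or 2 without Rop7-II replicate 1 (15.4% beside 6.97%), and between Rop7-I and Rop7-II 2 passed (15.4% beside 7.53%). Gnas, which encodes the stimulatory G protein to which that receptor couples, measured 860.0, 880.3 and 873.5 TPM for Rop7-III, 628.2, 648.5 and 669.5 TPM for Rop7-I and 630.4, 664.1 and 603.9 TPM for Rop7-II. The Rop7-III samples lay above the other 6, by 0.46 on the log2 scale against Rop7-II (adjusted p = 5.64e-05) and 0.43 against Rop7-I (adjusted p = 0.000194). The antisense genes Nespas and Gm20721 overlap Gnas, and Gm16093 overlaps Pde7a, and without strand their reads cannot be told apart. The cyclic AMP phosphodiesterase gene Pde7a averaged 167.8 TPM for Rop7-III, 156.3 TPM for Rop7-I and 125.0 TPM for Rop7-II. It was higher than in Rop7-II by 0.42 in Rop7-III (adjusted p = 6.19e-05) and by 0.32 in Rop7-I (adjusted p = 0.000462).

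The regulatory subunits of protein kinase A split. Prkar2a averaged 12.3 TPM for Rop7-III and 8.17 TPM for Rop7-II, a log2 difference of 0.54 (adjusted p = 0.00201, and 0.0110 without Rop7-III replicate 2). Prkar1a was highest in Rop7-II, at 327.9 TPM against 265.9 TPM for Rop7-I and 267.6 TPM for Rop7-III. Its log2 fold change was -0.29 for Rop7-III (adjusted p = 0.00251) and -0.30 for Rop7-I (adjusted p = 0.00310). The first did not pass without Rop7-III replicate 1 or 2 (0.0134 and 0.0125), nor the second without Rop7-I replicate 1 or 2 (0.0122 and 0.0172) or Rop7-II replicate 2 (0.0111). The 2 other genes that passed between these clones, Pde4b (log2 fold change 0.25, adjusted p = 0.00601) and Adcy7 (-0.16, adjusted p = 0.00804), encode a phosphodiesterase and an adenylyl cyclase. Pde4b did not pass without Rop7-I replicate 2, Rop7-II replicate 1 or 2 or any Rop7-III replicate (adjusted p of 0.0102 to 0.0267). Adcy7 did not pass without Rop7-I replicate 1 or any replicate of Rop7-II or Rop7-III (0.0126 to 0.0338).

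Adam10, Adam17, Ano6, Xkr8 and Cd27, genes listed for surface shedding and membrane scrambling after P2X7 opens, did not pass in any pair. P2ry10, a receptor of the P2Y group by sequence, averaged 94.2 TPM in both Rop7-III and Rop7-I and 56.2 TPM for Rop7-II. Its log2 fold change against Rop7-II was 0.74 in Rop7-III (adjusted p = 0.00207, and 0.0107 without Rop7-III replicate 3). It was 0.73 in Rop7-I (adjusted p = 0.00325), which did not pass without Rop7-I replicate 2 or 3 (0.0112 and 0.0121).

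Among 8 tested genes of NAD synthesis 1 passed between Rop7-III and Rop7-II, a share (12.5%) close to the 12.3% of all genes. Nmnat3, whose product makes NAD in mitochondria, averaged 8.25 TPM for Rop7-II, 5.00 TPM for Rop7-I and 4.18 TPM for Rop7-III. Its log2 fold change of Rop7-III against Rop7-II was -0.83 (adjusted p = 0.00535). It did not pass without Rop7-I replicate 3 (0.0101), Rop7-II replicate 1 or 2 (0.0116 and 0.0162) or Rop7-III replicate 1, 2 or 3 (0.0242, 0.0172 and 0.0172). The ATP release channel Panx1, at 43.0 to 52.4 TPM, and Lrrc8a, at 99.5 to 119.5 TPM, did not pass in any pair. Without Rop7-II replicate 1, Lrrc8a did pass between Rop7-I and Rop7-II.

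Among the other marker lists, the CD4 and regulatory T-cell markers summed to 31.8 to 56.3 TPM, with Ctla4 the most abundant, and Cd4 itself reached 6.75 TPM in Rop7-II replicate 1 and at most 0.94 TPM elsewhere. The NK-cell markers summed to 3.13 to 23.5 TPM, led by Eomes, and the platelet markers to 18.3 to 26.4 TPM, led by Itga2b, with Gp1bb listed at 0 in every sample. Memory-like CD8 markers summed to 178.2 to 220.2 TPM, led by Il2rb, and naive CD8 markers to 5738 to 7144 TPM, led by Tcf7. Eomes is on both the NK-cell and the memory-like list.

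Single markers within these sums separated the clones. Of the 7 memory-like markers tested, 4 passed between Rop7-III and Rop7-II, 57.1% beside 12.3% of all genes. In each of the other pairs 1 passed, 14.3% beside 4.85% and 7.53%, and with 1 sample left out this ran from 0 to 3 between Rop7-III and Rop7-I (2.13 to 6.97% of all genes) and from 1 to 3 between Rop7-I and Rop7-II (3.44 to 7.34%). Ccl5, a chemokine gene, averaged 28.8 TPM for Rop7-III, 7.74 TPM for Rop7-I and 4.14 TPM for Rop7-II. Its log2 fold change for Rop7-III was 2.61 against Rop7-II (adjusted p = 8.99e-05) and 1.77 against Rop7-I (adjusted p = 0.00174, and 0.0108 and 0.0109 without Rop7-III replicate 2 or 3). Between Rop7-III and Rop7-II, Cxcr3 (2.07, adjusted p = 0.00151) and Eomes (1.24, adjusted p = 0.00262) were also higher and Id2 lower (-0.52, adjusted p = 0.000917). The others tested in that pair, Cd44 (1.21, adjusted p = 0.0493), Il2rb (0.17, adjusted p = 0.0748) and Ly6c2 (-0.30, adjusted p = 0.548), did not pass. Eomes did not pass there without Rop7-III replicate 1 or 2 (0.0138 and 0.0134). It was highest in Rop7-I, by 2.19 against Rop7-II (adjusted p = 0.000188). On the naive list Il7r, which encodes the IL-7 receptor, ran in the same order as Adora2a, at means of 749.4 TPM for Rop7-III, 510.7 TPM for Rop7-I and 317.1 TPM for Rop7-II. All 3 pairs passed for Il7r, with log2 fold changes of 1.24, 0.55 and 0.69 (adjusted p = 1.26e-06, 0.000264 and 4.85e-05) for Rop7-III against Rop7-II, Rop7-III against Rop7-I and Rop7-I against Rop7-II. Ccr7 was highest in Rop7-II, with -0.24 for Rop7-I (adjusted p = 0.000522) and -0.14 for Rop7-III (adjusted p = 0.00655). The latter did not pass when any sample other than Rop7-II replicate 1 was left out (0.0111 to 0.0289). Of the 7 CD4 and regulatory T-cell markers, 2 passed between Rop7-III and Rop7-II, 28.6% beside 12.3% of all genes. These were Cd40lg and Ikzf2, higher in Rop7-III by 1.66 (adjusted p = 0.000384) and 0.66 (adjusted p = 0.000800). Cd4, Foxp3, Zbtb7b and Ctla4 had values of the other sign (-1.10, -0.79, -0.68 and -0.53) and did not pass, nor did Il2ra (0.07). Cd40lg, at 2.9 to 3.7 TPM for Rop7-III and at most 0.7 TPM elsewhere, also passed against Rop7-I (1.97, adjusted p = 0.000324). It got through the filter on low values through the Rop7-III samples alone. A gene kept by the group in which it is high had to differ, so its calls say little of the list. What part these markers have in the results on the 7 members was not tested.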

How the data were processed

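RNA of sorted CD8 T cells (200 ng per library, TruSeq mRNA kit, single-end reads of 100 bases, not strand-specific) was aligned and quantified by the authors with RSEM 1.2.11 against RefSeq genes of mm10. The deposited values used here are TPM per gene, to which a count test cannot be applied, and the reads were not analysed here. The methods give only a typical number of reads, and the depth of each sample is not known. The submitters' processing notes also name DESeq2 1.8.1.

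From these values, log2(TPM + 1) of the 12115 genes with a maximum TPM over 1 was fitted with limma 3.58.1 in R 4.3.3 to the 9 samples together, letting the spread follow mean expression, for the 3 pairs of clones and an F test. Adjustment followed Benjamini and Hochberg over all genes tested, and the threshold was 0.01. The script was tested on simulated data. The members and lists were chosen with earlier results of these data known. Named genes were the 7 members, the 12 pathway genes with the smallest F-test p among those passing in any pair (1 of them is not reported here), the 3 genes most correlated with each member that passed the F test, genes within 1 Mb of a member called at 2-fold, Art2 copies, and the leading and absent markers. Other list genes named beside these were chosen after their values were seen. Sequences came from RefSeq (GRCm38.p6) and GENCODE M21.

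Alternatives were other pseudocounts, filters, scalings, thresholds and spread models, sample weights, a replicate block, each sample left out in turn, and, chosen after seeing the data, a B-cell marker covariate.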

Additional observations from a re-analysis of the deposited data

How the results depend on the processing

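Art2b in both pairs with Rop7-III and Adora2a between Rop7-III and Rop7-II kept direction and call in the 21 alternatives that tested each, with adjusted p of 0.000106 to 0.00372, 6.27e-05 to 0.00286 and 0.000246 to 0.00341. Where a setting below moved a result, the cause was not tested, except that a stricter filter tests fewer genes. With TPM of at least 1 required in every sample, members passing numbered 1 (Rop7-III against Rop7-II), 0 (Rop7-III against Rop7-I), 0 (Rop7-I against Rop7-II) and 1 (F test), against 14.1%, 5.46%, 8.87% and 16.4% of all genes. That filter tested 3 members and left out Art2b, whose 21 alternatives include the run with both copies summed. For Rop7-III against Rop7-I, sample weights gave 2 members and 7 list genes (8.77% of all genes), only the 6 samples of the pair 3 members (7.84%), and an adjusted p under 0.05 gave 3 members and 9 list genes (13.1%). For Rop7-I against Rop7-II, only the 6 samples of the pair gave 0 members and 5 list genes (3.61% of all genes), no trend of the spread 5 list genes (4.95%), and an adjusted p under 0.05 gave 2 members (17.9%). With 1 sample left out, list genes passing ranged from 8 to 13, 2 to 6 and 5 to 9 in the 3 pairs (6.89 to 11.04%, 2.13 to 6.97% and 3.44 to 7.34% of all genes), and members between Rop7-I and Rop7-II from 0 to 1. The replicate numbers are not said to pair the samples. Deviations of same-numbered samples from their clone mean correlated by -0.39 to 0.11 over 9 pairs, others by -0.18 to 0.32 over 18. With 3 samples per clone these values depend on each other, so they cannot exclude a batch shared by samples of the same number. With the number as a replicate block, 0 members passed between Rop7-I and Rop7-II (5.06% of all genes), and Nt5e had an adjusted p of 0.0176 there and 0.0130 between Rop7-III and Rop7-II. With only the 6 samples of each pair it had 0.0232 and 0.0157. Over all alternatives the adjusted p of Nt5e ran from 0.00103 to 0.0249 and from 0.00173 to 0.0180. Of the 12 list genes with the smallest F-test p, Art2a-ps, Nmnat3, Acpp (Rop7-III against Rop7-I), and P2ry10, Slc28a2 and Prkar1a (Rop7-I against Rop7-II) also missed the threshold under at least 1 setting with all samples kept or only those of the pair (adjusted p of 0.0105 to 0.0205). Direction turned only for differences that did not pass. P2rx7 between Rop7-III and Rop7-II gave 0.000894 with quantile normalization and -0.31 to 0.16 with 1 sample left out. Cd38 in that pair gave -0.95 to 0.47 with 1 sample left out and 0.37 with the B-cell covariate, chosen after seeing the data. Between Rop7-III and Rop7-I the covariate gave 0.26 for Cd38 and 0.0801 for Entpd1, and Nt5e ran from -0.0192 to 0.0491 with 1 sample left out. Between Rop7-I and Rop7-II, sample weights gave 0.0326 for Entpd1, and with 1 sample left out Cd38 ran from -0.0350 to 1.38 and P2rx4 from -0.0490 to 0.0593. TPM keeps no depth of a single sample, so no counting error is given for values near 1 TPM.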
